A study of Rattus norvegicus with 6 samples.

Results

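The baseline described here is the transcriptome of control tongue tissue, given by the 3 libraries labelled as coming from rats without periodontitis (controls 1 to 3), out of 6 libraries in all. The other 3 libraries came from rats with periodontitis and were left out, so no comparison between the groups was made. The tissue is labelled dorsal tongue epithelium, and the series describes it as the circumvallate papilla of *Rattus norvegicus*. The labels give neither the strain, age and sex of the animals nor any sham treatment of the controls. They also do not say that each library came from a separate animal, so the spread between the 3 may be partly technical.

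The circumvallate papilla is a large mound at the back of the tongue, surrounded by a moat whose walls carry taste buds. The serous glands of von Ebner empty into the moat, mucous glands lie close by in the posterior tongue, and bundles of skeletal muscle run beneath the mucosa. The surface around the papilla is a stratified, keratinizing epithelium with hair-like filiform papillae. A dissected piece can therefore hold gland, surface epithelium, muscle, taste buds, connective tissue, vessels, nerves and immune cells.

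Each library held 1 value for each of 14405 protein-coding rows, in FPKM, which is the number of mapped fragments scaled for the length of the transcript and for the size of the library. FPKM can be compared between genes because it is per length. The values summed to 642068, 653393 and 629687 in controls 1 to 3, and the read depth behind them is unknown. All rows were ranked by the mean FPKM of the 3 libraries. A set of 27 gene lists, each tied to a tissue part or a general cell function and holding each gene once, was then used to divide the sum.

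The highest ranks were held by secreted proteins of the von Ebner glands, with Lipf (lingual lipase, which begins fat digestion) at 52006, 48516 and 64422 FPKM in controls 1 to 3. Lcn1 and Vegp2, which both encode von Ebner gland lipocalins that carry small hydrophobic molecules, came next, followed by Bpifb1, a secreted lipid-binding protein of the airway and mouth. The start of transcription of some abundant genes is shown because several of them share a short element there and because the 2 lipocalin genes are near copies. Each line gives the 100 bases before the RefSeq start (assembly GRCr8) on the gene's own strand, 5′ to 3′, with the TATA-box core TATAA in capitals where these letters occur.
Lcn1, chr3:29930843-29930942, plus strand: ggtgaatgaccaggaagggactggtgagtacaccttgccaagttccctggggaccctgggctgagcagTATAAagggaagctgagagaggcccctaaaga
Vegp2, chr3:29919163-29919262, minus strand: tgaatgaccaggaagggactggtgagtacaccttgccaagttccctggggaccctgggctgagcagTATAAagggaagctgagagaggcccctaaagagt
Bpifb1, chr3:163133051-163133150, plus strand: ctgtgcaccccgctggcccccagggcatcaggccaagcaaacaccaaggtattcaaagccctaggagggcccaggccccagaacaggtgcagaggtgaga
Csap1, chr10:13418842-13418941, plus strand: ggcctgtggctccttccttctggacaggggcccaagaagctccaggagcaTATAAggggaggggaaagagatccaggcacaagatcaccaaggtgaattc
Krt4, chr7:134930714-134930813, minus strand: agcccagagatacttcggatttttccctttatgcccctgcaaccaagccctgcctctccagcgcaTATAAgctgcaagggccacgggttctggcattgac
Bpifa1, chr3:163087865-163087964, plus strand: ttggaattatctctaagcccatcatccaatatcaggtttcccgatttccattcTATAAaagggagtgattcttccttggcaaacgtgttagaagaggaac

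TATAA began 32 bases before the start in Lcn1, 34 in Vegp2, 50 in Csap1, 35 in Krt4 and 47 in Bpifa1, while the 100 bases of Bpifb1 held no such letters. Of the 30 most abundant nuclear genes, 17 had a promoter in the RefSeq table, and 8 of these (47.1%) held TATAA on the gene's strand in the 100 bases before the start. The share was 31.3% among the 67 matched genes of the 100 most abundant, 4.99% among all 9545 matched genes of the deposited rows and 8.42% among all 24206 promoters of the table. Counting the letters on either strand (TATAA or its reverse complement TTATA, which can overlap) gave 47.1%, 31.3%, 6.23% and 11.5%. A match of letters is a description and shows no bound factor.

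The windows of Lcn1 and Vegp2, from 250 bases before to 50 after the start, were alike at 297 of 298 aligned bases (99.7%), with 275 identical bases in a row. Lcn1 was listed at 46333, 46997 and 58496 FPKM and Vegp2 at 38964, 41788 and 32864 FPKM, so that Lcn1 was highest and Vegp2 lowest in control 3. The ratio of Lcn1 to Vegp2 was 1.19, 1.12 and 1.78. LOC100911507, a row beside both on chromosome 3, had 8306, 5994 and 6178 FPKM. The 3 rows together summed to 93603, 94779 and 97538 FPKM (95307 ± 2020, SD, n = 3), a range of 1.04-fold, which was narrower than that of each row. An assembly can split reads from near-identical copies among them, so the single values of Lcn1 and Vegp2 are uncertain.

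The sum was concentrated in few genes. In controls 1 to 3, Lipf alone took 8.10%, 7.43% and 10.2% of the total, the 30 highest genes of each library took 43.0%, 42.0% and 43.5%, and the 100 highest took 52.2%, 51.9% and 52.4%. 50% of the sum was reached with 79, 83 and 76 genes, and 90% with 3893, 3657 and 3867 genes. The rest was thinly spread, with 13246, 12976 and 13101 rows at 1 FPKM or more and 72, 124 and 120 rows listed at 0. After the first 4, the ranking went on with Amy1a (salivary-type amylase, which cleaves starch) at 7326, 6859 and 11478 FPKM, with genes of the mitochondrial genome, and with Krt13 and Krt4, the keratin pair of soft stratified epithelium.

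**Figure D1:**
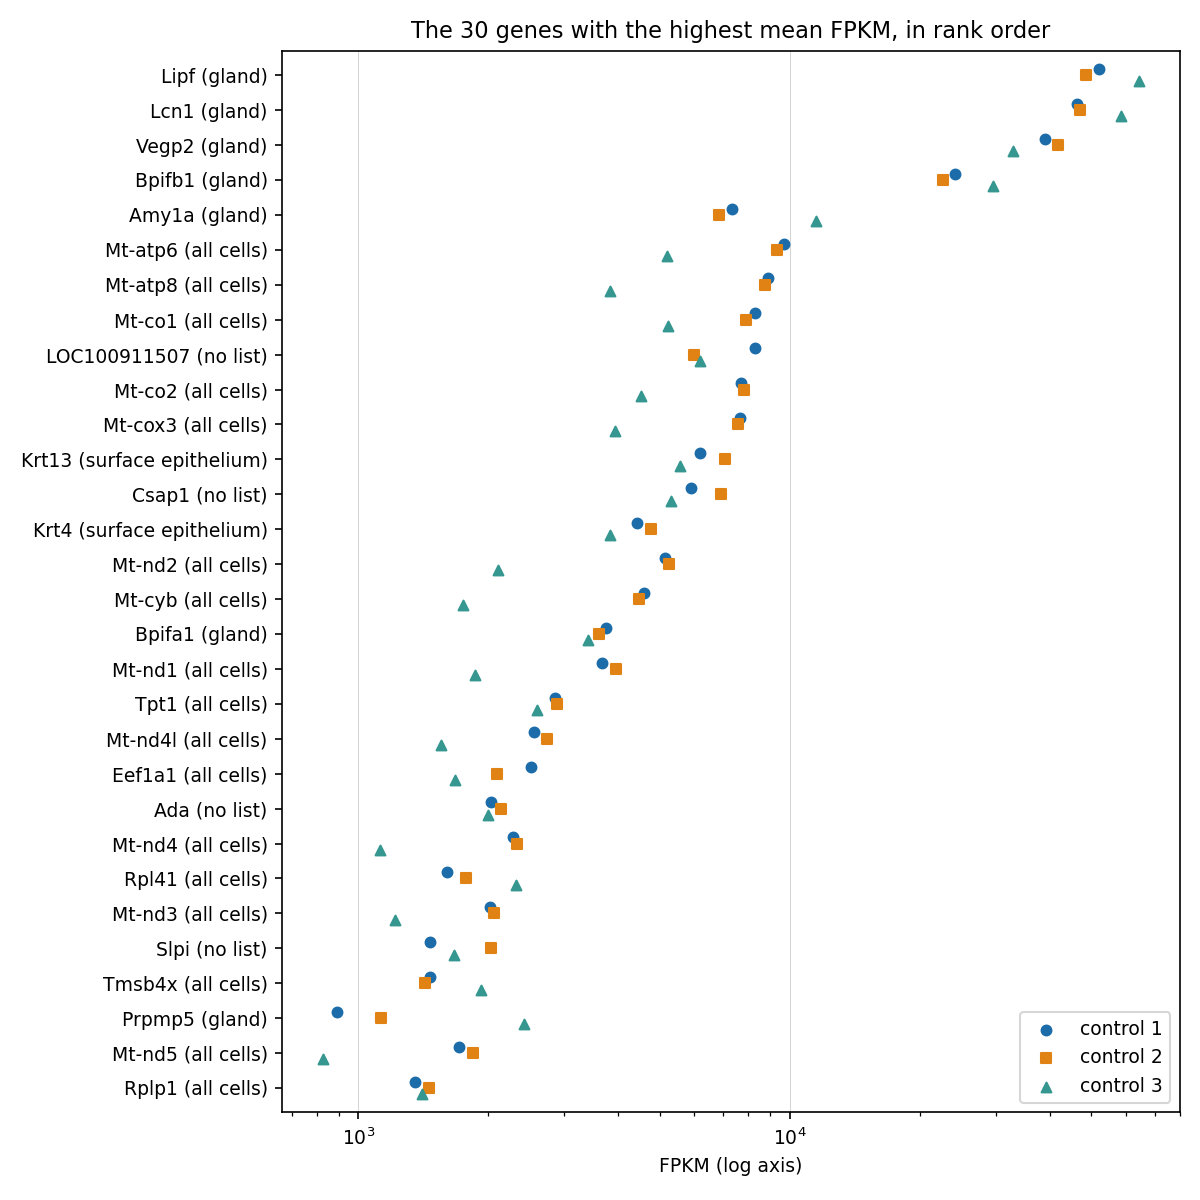
FPKM of the 30 genes with the highest mean, in rank order from the top, on a log axis, with 1 point for each of the 3 control libraries and the tissue part of each gene in brackets. The mitochondrial genes (Mt-) are lowest in control 3, where Mt-atp6 is at 5199 FPKM against 9671 and 9326, while Lipf, Lcn1, Bpifb1, Amy1a and Prpmp5 are highest there.

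By tissue part, gland genes held 29.4% ± 3.71 (SD, n = 3) of the FPKM sum, surface epithelium 5.63% ± 0.833, skeletal muscle 1.18% ± 0.218, stroma 1.12% ± 0.0397, immune cells 0.340% ± 0.0696 and taste buds 0.0584% ± 0.00306. Genes that all cells use (ribosomal, respiratory, secretory machinery and other general genes) held 25.5%, 26.0% and 20.9% in controls 1 to 3, and 13257 rows in no list held 38.4%, 37.7% and 38.1%. Among the 766 rows assigned to a tissue part or to blood and ciliated cells, gland took 76.6%, 74.2% and 82.0% of their FPKM. These are shares of RNA signal and not of cells, since fewer cells of a type and less RNA per cell cannot be told apart in bulk tissue. The order gland, surface epithelium, then muscle and stroma, then immune cells and taste buds was the same in each library, except that stroma stood above muscle in controls 1 and 3 and below it in control 2.

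**Figure D2:**
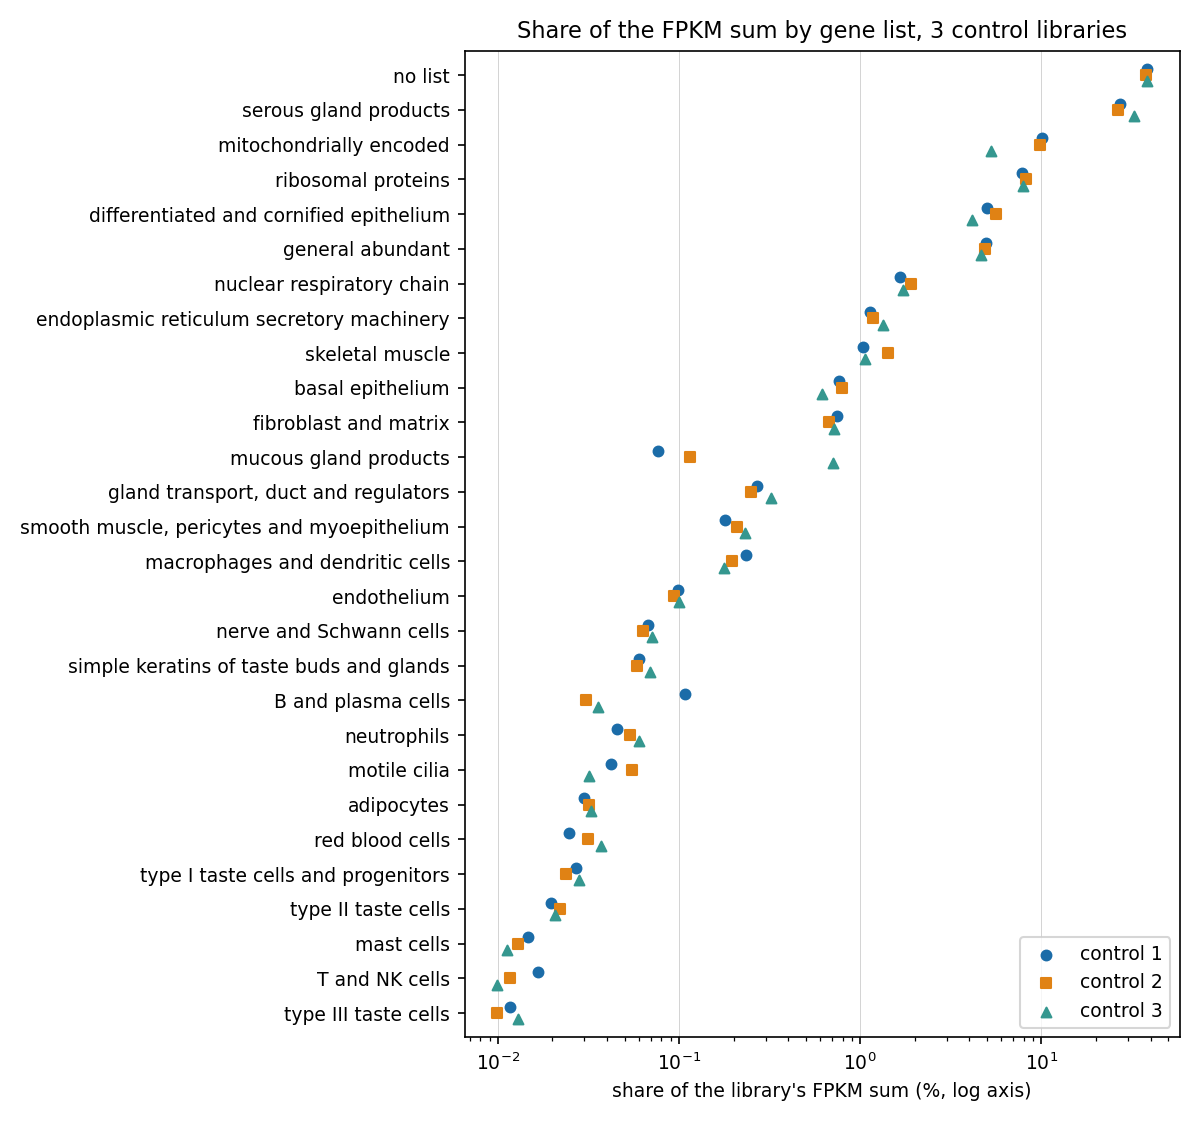
Share of each library's FPKM sum held by each gene list, in percent on a log axis, with 1 point for each of the 3 control libraries. The mucous gland list lies at 0.708% in control 3 against 0.0764% and 0.115%, the mitochondrially encoded list at 5.28% in control 3 against 10.02% and 9.82%, and the B and plasma cell list at 0.108% in control 1 against 0.0305% and 0.0357%.

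How far the 3 libraries differed gene by gene was described for the 13171 genes whose mean reached 1 FPKM, as the fold between the highest and the lowest library on FPKM + 1, with no test. The median fold over all these genes was 1.26. A fold over 1.5 was found for 19.5% of them (2569 genes) and a fold over 2 for 4.90% (645 genes). In pairs, 798 genes differed over 1.5-fold between controls 1 and 2, 1440 between controls 1 and 3 and 1721 between controls 2 and 3. The highest value fell in control 1 for 34.5% of genes, in control 2 for 29.7% and in control 3 for 35.9%, and the lowest in control 1 for 24.3%, in control 2 for 36.3% and in control 3 for 39.4%. These shares are the background for the counts of each part below.

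Gland was the part with the largest share. It was 27.6%, 26.8% and 33.6% of the sum in controls 1 to 3, a 1.25-fold range, and without control 3 the mean was 27.2%. The range was 1.43-fold for immune cells, 1.38-fold for muscle and 1.35-fold for surface epithelium. Of its 71 genes whose mean reached 1 FPKM, 39 (54.9%) differed over 1.5-fold and 47 were highest in control 3. Lipf made up 29.2% of the part and the 4 leading genes 89.8%, so the sum speaks for very few genes.

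The list of serous products, a general list of proteins secreted by glands, held 27.3%, 26.5% and 32.6% of the FPKM sum. Bulk tissue does not show which cells made each of them. Bpifb1 was at 24141, 22662 and 29632 FPKM, and Dmbt1, a scavenger protein of saliva, at 739, 527 and 927 FPKM. Both were highest in control 3, where the median serous gene lay 0.23 above the mean of the 3 libraries on the log2(FPKM + 1) scale, against -0.14 and -0.10 in controls 1 and 2. Of 30 serous genes whose mean reached 1 FPKM, 17 were highest in control 3 and 8 were lowest there, Vegp2 among the latter. Prpmp5, a proline-rich salivary protein, had 889.8, 1127 and 2425 FPKM, and Wfdc2, a small secreted protease inhibitor-like protein, 168, 211 and 327 FPKM, again highest in control 3. Bpifa1, a palate and airway surface protein, went the other way with 3747, 3617 and 3408 FPKM, within a narrow range. Lyz2, a lysozyme gene that macrophages also express, was highest in control 1 at 326, 193 and 194 FPKM. Dmbt1, Wfdc2 and Lyz2 were picked after their values were seen.

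Mucous gland products showed the widest range of any list, at 0.0764%, 0.115% and 0.708% of the FPKM sum, a 9.26-fold range. 13 of 17 genes differed over 1.5-fold and 14 of 17 were highest in control 3. Tff2, a trefoil peptide that is secreted with mucus, was at 52.97, 261 and 3157 FPKM and alone made up 60.9% of the list. Muc5b, the main gel-forming mucin of salivary mucous cells, was at 79.7, 113 and 594 FPKM, and Fcgbp, a mucus-associated protein, at 166, 155 and 274 FPKM. In all 3 genes control 3 stood above the other libraries, and in Tff2 controls 1 and 2 also differed several-fold.

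Further members of the list are given here as single genes. Agr2, a disulfide isomerase needed for mucin folding, had 39.8, 66.6 and 143 FPKM. Spdef, a transcription factor of mucous secretory cells, had 15.2, 15.97 and 29.1 FPKM, and Creb3l1, a regulator of secretory capacity, 17.4, 16.9 and 33.1 FPKM. Tff1 and Smgc, a trefoil peptide and a submandibular gland mucin-like protein, were near the bottom of the range in controls 1 and 2 but not in control 3, at 1.69, 3.497 and 40.3 FPKM for Tff1 and 0.686, 1.43 and 22.9 FPKM for Smgc. Bpifb2 and Lman1l, which are on the serous list, followed the same order with 5.54, 34.5 and 363 FPKM and 1.18, 3.31 and 45.5 FPKM. Spdef, Creb3l1, Tff1, Smgc and Lman1l were picked after their values were seen. Without control 3 the mean share of the mucous list was 0.0958%, against 0.2997% with it, so its place in the baseline rests on that library.

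Transport, duct and regulator genes of the gland held 0.269%, 0.249% and 0.322% of the sum. Of these, 8 of 24 (33.3%) differed over 1.5-fold, fewer than the 60% of serous and 76.5% of mucous genes but above the background of 19.5%. Aqp5, the water channel of serous acini, was at 193, 158 and 217 FPKM, and Pigr, the receptor that carries polymeric antibody into saliva, at 209, 182 and 289 FPKM. Kcnn4, a calcium-activated potassium channel that drives fluid secretion, had 67.2, 69.9 and 97.4 FPKM, and Fxyd3, a regulator of the sodium pump, 576, 573 and 676 FPKM. Control 3 was the highest in all 4, although the range stayed under 1.7-fold. Genes of the endoplasmic reticulum secretory machinery, which fold and export secreted proteins in all cells, were at 1.13%, 1.17% and 1.33%. There 45 of 68 were highest in control 3, and 6 of 68 (8.82%) differed over 1.5-fold. P4hb, a protein disulfide isomerase, was at 395, 409.5 and 478 FPKM and Sec11c, a signal peptidase subunit, at 236, 258 and 327 FPKM.

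Surface epithelium came second, with 5.75%, 6.40% and 4.75% of the FPKM sum. It was spread over more genes than gland, 10 genes making up 50% of it, and Krt13 alone 17.3%. Of its 138 genes whose mean reached 1 FPKM, 95 were highest in control 2 and 105 lowest in control 3, and 68 (49.3%) differed over 1.5-fold. Krt13 was at 6180.3, 7057 and 5557 FPKM and Krt4 at 4434, 4768 and 3821 FPKM, both in the order control 2, control 1, control 3.

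Basal cell genes, those of the dividing layer, held 0.759%, 0.790% and 0.618%. Of these, 7 of 31 (22.6%) differed over 1.5-fold, slightly above the background of 19.5%. Krt5 and Krt14, the keratin pair of basal cells, were at 593, 611 and 484 and 639, 694 and 471 FPKM. Krt17, a keratin of appendages and tongue papillae, had 1002, 974 and 752 FPKM, and Perp, a desmosomal membrane protein, 775, 813 and 550.3 FPKM. Sfn, a cell cycle checkpoint protein of stratified epithelium, had 576, 749.7 and 515 FPKM. Each of these 5 was lowest in control 3. In the deposited positions the Krt14 row overlaps those of Krt17 and Krt19 on the same strand, so these rows are uncertain one by one.

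Differentiation and cornification genes varied more, at 4.99%, 5.61% and 4.13% of the sum. 61 of 107 genes (57.0%) differed over 1.5-fold, 83 were highest in control 2 and 83 lowest in control 3. Rptn, a cornified envelope protein of filiform papillae, was at 957, 1311 and 592 FPKM. Sprr3 and Sprr1a, small proline-rich envelope proteins, were at 1049, 1088 and 441 and 1067, 1142 and 619.6 FPKM. Controls 1 and 2 lay near each other in the Sprr genes, with control 3 well below them. Fabp5, the epidermal fatty acid carrier, had 1216, 1431 and 1208 FPKM, and Serpinb3a, a protease inhibitor of squamous cells, 1119, 1429.5 and 891 FPKM, both highest in control 2.

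Single genes with a wide range are given next. Crnn, cornulin, had 96.9, 185 and 17.5 FPKM. Tchh, trichohyalin, which hardens the inner root sheath of hair and filiform papillae, had 157, 199.5 and 47.3 FPKM. The hard keratins Krt36 and Krt84 had 140.4, 209 and 34.6 and 73.97, 111 and 16.7 FPKM, and Krt24 118, 218 and 52.9 FPKM. Krtap3-1 and Krtap3-3, keratin-associated proteins that crosslink hard keratin and stand in no list, had 43.4, 66.7 and 4.06 and 49.8, 86.6 and 6.61 FPKM. The order control 2, control 1, control 3 held for each of these 7 genes, which were picked, as were the Sprr genes, after their values were seen.

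Not all members followed that order. Krt10, a keratin of cornifying skin, had 129, 231 and 205 FPKM, with control 1 the lowest. S100a16, a calcium-binding protein, was among the steadiest genes at 248, 253 and 250.004 FPKM. Stfa2, a stefin that inhibits cysteine proteases, was highest in control 3 at 24.1, 17.6 and 93.95 FPKM, and was picked after its values were seen. Lor (loricrin) was not analysed here.

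**Figure D3:**
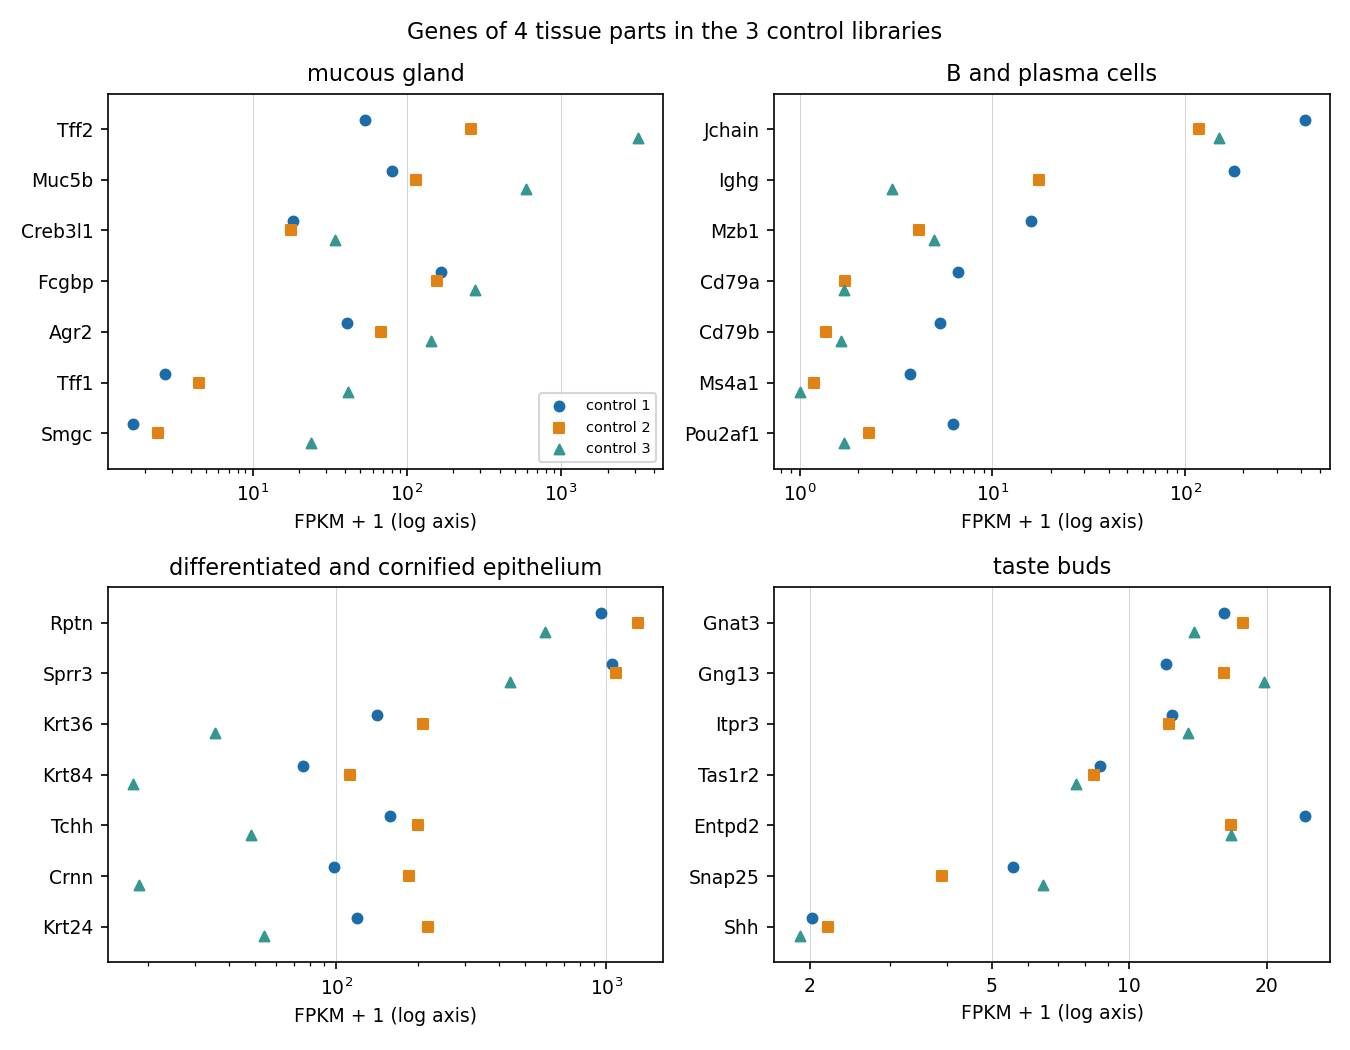
FPKM + 1 on a log axis for 7 genes of each of 4 parts, picked after their values were seen, with 1 point for each of the 3 control libraries and a separate axis in each panel. Control 3 is the highest for all 7 mucous gland genes and the lowest for all 7 genes of the differentiated epithelium, control 1 is the highest for all 7 B and plasma cell genes, and the taste panel spans less than a 2-fold range in each gene. Over the full lists these counts were 14 of 17, 83 of 107 and 11 of 13.

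Skeletal muscle genes were present in every library although the label names epithelium, at 1.04%, 1.43% and 1.06% of the FPKM sum. Control 2 was highest for 103 of 119 genes, and 59 of 119 (49.6%) differed over 1.5-fold, but 7 of 119 over 2-fold. The median gene lay 0.33 above the 3-library mean in control 2 on the log2(FPKM + 1) scale, against -0.16 and -0.15 in controls 1 and 3. Most muscle genes thus had the same highest library, by a modest amount.

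Mb, myoglobin, which stores oxygen, was the highest muscle gene at 769, 1011 and 808 FPKM. Tnnt3 and Tnnc2, subunits of fast troponin, had 618, 916 and 624 and 525, 738 and 705 FPKM, and Mylpf, a fast myosin light chain, 533, 753 and 538 FPKM. Acta1, skeletal actin, had 528, 746 and 468 FPKM and Ckm, muscle creatine kinase, 402, 571 and 340.02 FPKM. Each of these 6 was highest in control 2.

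Among the sarcomeric myosin heavy chains analysed (Myh2, Myh8, Myh3 and Myh7b), Myh2, the chain of fast oxidative fibers, took 96.7%, 97.5% and 96.6% of their summed FPKM, at 133, 195 and 142 FPKM. Myh1, Myh4 and Myh7 were not analysed here, so this is no measure of fiber types. The slow troponin genes Tnnt1 and Tnnc1 were low, at 3.45, 2.65 and 3.16 FPKM and 0.857, 0 and 1.13 FPKM. Myh2, Tnnt1 and Tnnc1 were picked after their values were seen.

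Taste bud genes made up the smallest share of the 6 parts, 0.0581%, 0.0555% and 0.0616% of the FPKM sum, with a range of 1.11-fold between the libraries. Of 65 rows, 44 reached a mean of 1 FPKM, 15 of these (34.1%) differed over 1.5-fold, above the background of 19.5%, and none over 2-fold, against a background of 4.90%. The folds are on FPKM + 1, which narrows them for genes at a few FPKM, as many taste genes are. The absence of genes over 2-fold is therefore no sign that taste genes were steadier. The highest library was control 1, 2 and 3 for 14, 12 and 18 genes. No 1 library stood apart in the way that control 3 did for mucous genes.

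Type II cells detect sweet, umami and bitter substances through a shared cascade of G protein, phospholipase, calcium release and the channel Trpm5. Gnat3 (gustducin), the G protein alpha subunit, was at 15.1, 16.8 and 12.9 FPKM and Gng13, a gamma subunit, at 11.02, 15.2 and 18.7 FPKM. Plcb2, the phospholipase, had 4.68, 7.27 and 7.75 FPKM, Itpr3, the calcium release channel, 11.4, 11.2 and 12.5 FPKM, and Trpm5 2.89, 4.04 and 3.59 FPKM. Gng13 and Plcb2 were lowest in control 1 and highest in control 3, whereas Gnat3 was lowest in control 3, so the members of the cascade did not share 1 order.

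Among the receptors, Tas1r2, the sweet receptor subunit, was the highest at 7.64, 7.38 and 6.64 FPKM. Its partner Tas1r3 was listed at 0.167, 1.04 and 1.23 FPKM and the umami subunit Tas1r1 at 0.5204, 0.8002 and 0.208 FPKM. These values near or under 1 FPKM carry little precision. Plcb2, Tas1r3 and Tas1r1 were picked after their values were seen.

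Type III cells sense sour stimuli and form synapses. Pkd1l3, a channel subunit, was at 13.1, 12.9 and 9.69 FPKM, and Otop1, the proton channel of sour sensing, at 3.97, 3.402 and 3.46 FPKM, picked after its values were seen. Snap25, a synaptic fusion protein, had 4.56, 2.902 and 5.47 FPKM and Car4, an anhydrase of the cell surface, 1.75, 2.15 and 1.96 FPKM. Uchl1, at 13.04, 10.1 and 15.4 FPKM, is also a nerve protein. Each stayed within a 2-fold range.

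Type I, support-like, cells and progenitors were represented by Entpd2, an ATP-degrading enzyme, at 23.2, 15.7 and 15.7 FPKM. Sox2, a factor of taste progenitors that basal tongue epithelium also expresses, was the highest taste gene at 59.2, 53.7 and 53.6 FPKM. Shh, the signal of taste bud basal cells, had 1.02, 1.196 and 0.898 FPKM and Lgr5, a stem cell receptor, 1.82, 1.17 and 0.795 FPKM. The simple keratins Krt8 and Krt18, shared by taste buds and glands and so kept apart, had 124, 138 and 154 and 161, 160.2 and 197 FPKM, both highest in control 3.

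Stroma was the steadiest part, at 1.12%, 1.07% and 1.15% of the FPKM sum, a 1.07-fold range. Its single genes were not steadier than others, since 50 of 201 (24.9%) differed over 1.5-fold, against a background of 19.5%. Their median fold was 1.36, against 1.26 over all genes. Gsn, gelsolin, an actin-severing protein also made by other cells, led it at 642, 622 and 754 FPKM. Dcn, decorin, a collagen-binding proteoglycan, had 653, 572 and 505 FPKM, highest in control 1, and Lum, lumican, a related proteoglycan, followed the same order at 232, 187 and 163 FPKM. Col3a1, a fibrillar collagen, had 269, 286 and 355 FPKM and Col1a1, the main fibrillar collagen of connective tissue, 62.2, 78.98 and 87.4 FPKM, both highest in control 3. The matrix thus held genes of opposite orders, which offset each other in the sum.

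Endothelial genes were at 0.0992%, 0.0938% and 0.1005%, with 7 of 42 over 1.5-fold. Cav1, a caveolar coat protein, was among the 10 genes with the smallest CV of those whose mean reached 50 FPKM, at 51.3, 51.1 and 50.6 FPKM, and Fabp4, a fatty acid carrier of capillaries and fat, had 111, 136 and 139.95 FPKM. Ccl21, the chemokine of lymphatic vessels, had 90.5, 98.4 and 107 FPKM. Smooth muscle, pericyte and myoepithelial genes were at 0.1802%, 0.208% and 0.231%. Acta2, the smooth muscle actin that also marks the myoepithelial cells around acini, had 150.04, 168 and 213 FPKM. The list was led by Tpm2, a tropomyosin that skeletal muscle also expresses, at 450.5, 570.2 and 558 FPKM, highest in control 2.

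Nerve and Schwann cell genes were at 0.0677%, 0.0632% and 0.0712%, with 20 of 27 lowest in control 2. Cryab gave 28.4% of the list and, unlike most of it, was highest in control 2, at 109, 152 and 106 FPKM. The share of the list in control 2 thus hides part of the lower values of its other genes. Pmp22, a protein of peripheral myelin, had 37.6, 33.5 and 35.5 FPKM. Adipocyte genes were at 0.0299%, 0.0317% and 0.0325%, but Thrsp, a lipogenic gene that epithelia and glands can also express, gave 44.2% of them. Adipoq, the defining adipocyte hormone adiponectin, was low at 1.06, 4.89 and 1.93 FPKM. Pecam1 was not analysed here.

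Immune cell genes held 0.420%, 0.305% and 0.295% of the FPKM sum. Control 1 was highest for 72 of 104 genes, and 54 (51.9%) differed over 1.5-fold. This share leaves out immunoglobulin rows that are in no list, such as Igh-6 and LOC100361706, which are described under other observations. Among the immune lists as drawn up, macrophage and dendritic cell genes held the most, at 0.235%, 0.196% and 0.178%. Cd74, the chaperone of class II antigen presentation, had 399.8, 366 and 303 FPKM, and C1qc, a complement subunit made by tissue macrophages, 61.7, 36.6 and 36.7 FPKM. T and NK cell genes were low at 0.0166%, 0.0117% and 0.00990%, and 16 of 19 were highest in control 1. Cd3e, a T cell receptor subunit, had 3.12, 1.52 and 1.28 FPKM.

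B and plasma cell genes differed most among the immune lists, at 0.108%, 0.0305% and 0.0357%, a 3.54-fold range. The list lacks the immunoglobulin rows Igh-6 and LOC100361706, so its share and range depend on which rows it covers. 11 of 13 genes were highest in control 1 and 9 of 13 differed over 1.5-fold. Jchain, which joins polymeric antibodies for transport into saliva, had 414, 116 and 148 FPKM and made up 60.6% of the list. Ighg, an immunoglobulin heavy chain row, had 177, 16.3 and 2.01 FPKM. Mzb1, a plasma cell chaperone, had 14.9, 3.15 and 3.98 FPKM. In all 3 genes control 1 stood well above both others.

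Cd79a, a B cell receptor subunit, had 5.59, 0.727 and 0.698 FPKM, and Ms4a1 (CD20) 2.73, 0.1904 and 0 FPKM. Cxcl13, the chemokine that draws B cells into follicles and which is in no list, had 74.4, 24.4 and 12.8 FPKM. Pigr, the epithelial antibody receptor, did not share that order and was highest in control 3. Mzb1, Cd79a, Ms4a1 and Cxcl13 were picked after their values were seen. Without control 1 the mean share of the list was 0.0331%, against 0.0581% with it.

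Mast cell genes were at 0.0146%, 0.0129% and 0.0112%, with Cpa3, a granule protease, at 16.5, 15.1 and 9.78 FPKM and Mcpt1l1, a mast cell chymase-like protease, at 29.7, 27.8 and 15.7 FPKM. Both were lowest in control 3. On the neutrophil list, 4 of 9 genes were highest in control 2 and 4 in control 3. S100a8, a calprotectin subunit, had 43.3, 62.9 and 81.03 FPKM and Retnlg 7.29, 6.99 and 47.95 FPKM, both highest in control 3, while Il1r2, a decoy receptor for interleukin 1, had 9.26, 12.3 and 9.29 FPKM and was highest in control 2. That list was led by Lcn2 at 185, 213 and 171 FPKM, a gene that inflamed or glandular epithelium also makes. The hemoglobin gene Hbb had 44.6, 37.4 and 53.9 FPKM, and the red blood cell list 0.0248%, 0.0314% and 0.0372%, lowest in control 1. Control 1 had the largest immune share and the smallest share of red blood cell genes, and a link between these was not tested. Motile cilium genes were led by Tppp3 at 229, 302 and 155 FPKM, which gave 82.6% of that list, and Foxj1, the master regulator of motile cilia, was not analysed here.

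The 13 protein genes of the mitochondrial genome held 10.02%, 9.82% and 5.28% of the FPKM sum. 12 of the 13 differed over 1.5-fold and were lowest in control 3. Mt-atp6 had 9671, 9326 and 5199 FPKM, Mt-co1 8308, 7892 and 5222 FPKM and Mt-cyb 4596, 4476 and 1747 FPKM, so that control 3 stood at 0.547, 0.645 and 0.385 times the mean of the other two. The exception was Mt-nd6, which had 142, 163 and 153 FPKM and is the only one of the 13 on the minus strand in the deposited positions. Mt-nd5 and Mt-nd6 overlap on opposite strands, Mt-atp8 and Mt-atp6 overlap on the same strand, as do Mt-nd4l and Mt-nd4, and the strand setting of the counting is not known, so these rows are uncertain one by one.

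Nuclear genes of the respiratory chain did not share the low value in control 3. They held 1.66%, 1.90% and 1.72% of the sum, and Atp5b, the catalytic subunit of ATP synthase, had 455, 536 and 462 FPKM. Ribosomal protein genes held 7.79%, 8.22% and 7.87%, with 21 of 100 over 1.5-fold. In control 3 the median mitochondrial gene lay 0.64 below the 3-library mean on the log2(FPKM + 1) scale as deposited, and 0.55 below it with the values rescaled to equal sums without the 4 most abundant genes.

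**Figure D4:**
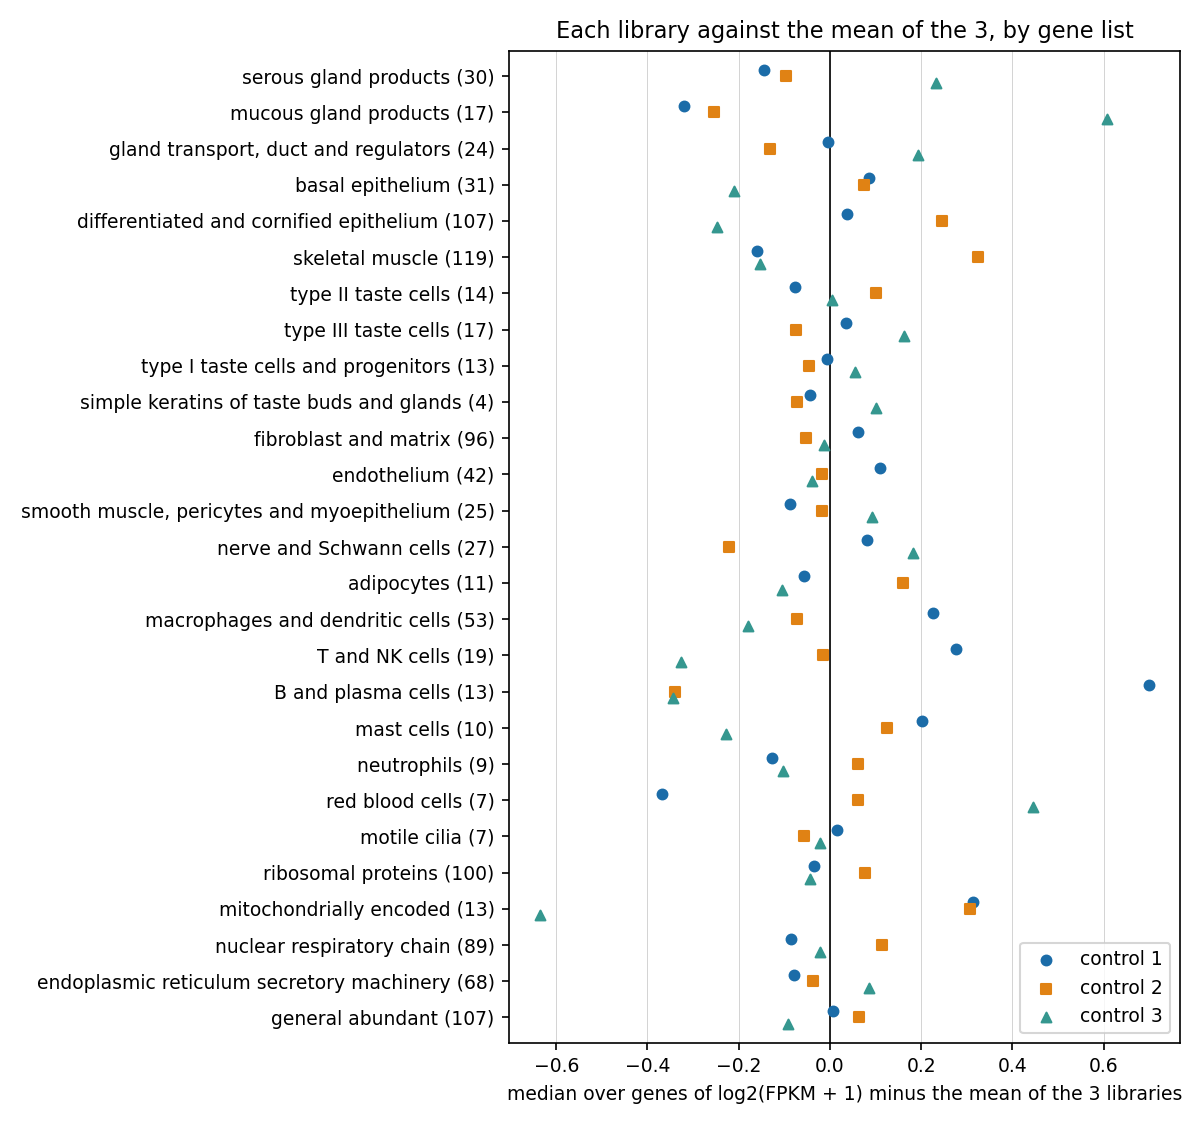
Median over the genes of each list of log2(FPKM + 1) in a library minus the mean of the 3 libraries, with the number of genes whose mean reached 1 FPKM in brackets. B and plasma cells in control 1 (0.70), mucous gland products in control 3 (0.61) and mitochondrially encoded genes in control 3 (-0.64) lie farthest from 0, and skeletal muscle is 0.33 in control 2.

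The sum was also unevenly spread over the genome, in the positions of the deposited rows (the rat build of these positions is not stated). Chromosome 3 held 24.1% ± 1.18 (SD, n = 3) of the FPKM sum with 7.53% of the rows, and chromosome 1, which carries Lipf, 16.6% ± 1.57 with 12.6% of the rows. On chromosome 3 the rows of Lcn1, Vegp2 and LOC100911507, chr3:4138268-4236960, held 14.6%, 14.5% and 15.5% within 98.7 kb. LOC100911507 is in no list, so the gland share leaves it out. The Bpif cluster, chr3:149358881-149724352, held 4.37%, 4.06% and 5.34% with 9 rows.

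The clusters of the surface epithelium were smaller. The type I keratin cluster, chr10:87189934-88172910, held 1.45%, 1.64% and 1.24% in 20 rows, and the type II keratin cluster, chr7:142994119-143633131, 1.11%, 1.25% and 0.942% in 21 rows. The epidermal differentiation cluster, chr2:192481028-193783761, held 0.773%, 0.944% and 0.561% in 28 rows. Each of these 3 was highest in control 2 and lowest in control 3, the order of the surface epithelium as a whole. That part counts many of the same rows, such as Krt13 and Krt4, so the shared order is no separate support.

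The widest and the narrowest ranges of single genes marked the limits of this baseline. Among genes whose mean reached 20 FPKM, LOC100912070 was at 142, 0 and 0 FPKM, and a row of Rack1 on chromosome 12 at 12.1, 2.94 and 523 FPKM, which is a second row of that symbol and may share reads with its copy. Fam111a was at 5.95, 80.4 and 106 FPKM. Ighg, Tff2 and Bpifb2, described above, were also among these 10 genes, of which 6 were highest in control 1, 4 in control 3 and none in control 2. At the other end, among those whose mean reached 50 FPKM, Pfn1, profilin, which binds actin, was at 270.3, 271 and 268 FPKM, and Ifi27 at 74.01, 74.2 and 73.6 FPKM. Cav1 of the endothelial list and S100a16 of the surface epithelium were among the 10 steadiest as well.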

How the data were processed

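RNA-seq values of 3 control libraries were used. The labels' protocols name total RNA and an Illumina NovaSeq sequencer. The authors' deposited values are FPKM, per the file headers, with 14405 protein-coding rows. FastQC, cutadapt, HISAT2 and StringTie are named without versions or settings in the submitters' processing notes, which also name the mouse build mm10, whereas gene identifiers are those of rat. No source used here gives counts, depth or strand, so no counting interval was computed.

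Shares of the FPKM sum, folds on FPKM + 1 and medians of log2(FPKM + 1) were computed from these values with Python 3.11.15, pandas 2.3.3 and numpy 2.4.6, and the code was tested on simulated data. Promoters came from RefSeq (GRCr8), matched by symbol and aligned with Biopython 1.88. With no group comparison, no test was made. Named genes were the 30 most abundant, up to 5 per list, 35 defining genes (30 analysed), the 10 with the widest range, the 10 with the smallest CV and the 20 highest in no list. Some genes that this rule names are not reported here. Others are said to be picked afterwards. Libraries, lists and rules were chosen with earlier results of these data known. Alternatives covered left-out libraries, other sums, filters, pseudocounts and scalings.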

Additional observations from a re-analysis of the deposited data

How the results depend on the processing

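Depth is unknown, so values near or under 1 FPKM have no stated precision. Without the 4 most abundant genes, the mean shares were 4.11% for gland, 7.63% for surface epithelium, 1.59% for muscle, 0.0795% for taste buds, 1.52% for stroma and 0.461% for immune cells, so most of the gland share is those 4 genes. Without ribosomal and mitochondrial genes they were 35.0%, 6.76%, 1.41%, 0.0698% and 1.33% for gland, surface epithelium, muscle, taste buds and stroma. As shares of the sum of log2(FPKM + 1), surface epithelium was 1.83%, stroma 1.64%, muscle 1.03%, gland 0.807%, immune cells 0.694% and taste buds 0.279%. Leaving out each library in turn gave 27.2% to 30.6% for gland, 5.25% to 6.07% for surface epithelium, 1.05% to 1.25% for muscle, 0.0568% to 0.0599% for taste buds, 1.10% to 1.14% for stroma and 0.2999% to 0.363% for immune cells. Of the 30 most abundant genes, 28 to 30 were kept under each other ranking tried. Genes over 1.5-fold numbered 1433 with a mean of at least 5 FPKM and 798 to 1721 with 1 library left out, which leaves 2 to compare. Genes over 2-fold numbered 1191 with a pseudocount of 0.1, 342 with a mean of at least 5 FPKM and 235 to 392 with 1 library left out. The filter of 5 FPKM leaves fewer genes to count, and their number was not kept. Its lower counts are therefore no measure of less variation. Scaling to equal sums without the 4 most abundant genes shifted the median of all genes by 0.08 in control 3 and by -0.05 in control 2 (log2), and moved 8 of 81 medians of a list in a library, none of those being gland products, surface epithelium, muscle or immune cells. In control 3 that scaling turned the medians of the fibroblast, endothelium, cilium, ribosomal and nuclear respiratory lists, all near 0, from below to above 0. The alternative weighted by protein length was not run. No paired analysis was possible because there is 1 group and the results come from no test.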

Other observations

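Several of the 20 most abundant genes outside the lists are described here. Csap1, a secreted protein of salivary tissue, ranked among the 30 highest genes at 5911, 6907 and 5292 FPKM, and Ada, adenosine deaminase, at 2027, 2144 and 1992 FPKM. Slpi, a leukocyte protease inhibitor of mucosal surfaces, had 1462, 2034 and 1664 FPKM. Mt4, a metallothionein of stratified epithelium, had 1067, 1317 and 1141 FPKM, Defb4, a beta-defensin, 855, 1463 and 882 FPKM, and RGD1562234, which RefSeq lists as a synonym of S100a7l2, 687, 1128 and 284 FPKM. LOC100359583, for which RefSeq gives Ptmal5, had 1150.2, 1191 and 1007 FPKM, and LOC687780, for which it gives Faul1, 443, 499 and 580.3 FPKM. Slpi, Mt4, Defb4 and RGD1562234 were each highest in control 2. Crisp3, a cysteine-rich protein of saliva, was highest in control 3 at 449.7, 492 and 889 FPKM, as was Gp2, a glycoprotein of secretory granules, at 48.9, 54.8 and 264 FPKM. Gp2 was picked after its values were seen.

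Among immunoglobulin rows in no list, Igh-6 had 235, 111 and 26.7 FPKM, and the higher of both rows named LOC100361706, for which RefSeq gives the lambda constant gene Iglc1, had 326, 75.9 and 76.4 FPKM. Both rows were highest in control 1. They were picked after their values were seen, and near-identical immunoglobulin segments make each row uncertain.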
